A study of Mus musculus with 6 samples.

Results

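The genes described here encode 9 proteins that stand on the surface of B lymphocytes and that mark activation or carry signals to and from T cells: Cd80, Cd86, Cd40, Icosl, Cd83, Cd69, Cd44, Fas and Slamf1. They were chosen by name, and each gene was read by its brightest probe, the probe with the highest mean log2 intensity over the 6 arrays among 31 probes annotated to 1 of the 9 genes alone. All 9 were bright enough to be tested, as were 11855 genes in all. Transcript levels were measured on 1-colour Illumina bead arrays in B lymphocytes purified from the spleen of C57BL/6 mice, an inbred strain, when the mice were 8 weeks old. The groups were untreated (3 samples) and anti-IgM (3 samples). Separate mice for each replicate are not stated in the labels, so the p-values rest on a spread between samples that may in part be technical. Anti-IgM was a goat F(ab')2 antibody fragment that cross-links the B cell antigen receptor (BCR), given at 2.5 µg/ml for 3 h. The protocol, worded alike for all samples, also names the cytokine IL-4 at 5 ng/ml and the CD40 ligand CD40L at 200 ng/ml. Which samples received these is not stated, so every difference below is between samples as labelled, and effects of anti-IgM, IL-4 and CD40L cannot be told apart if they were given together.

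A B cell that has bound antigen needs help from T cells, and the proteins of this group carry much of that exchange. CD80 and CD86 bind CD28 and CTLA-4 on T cells, ICOSL binds ICOS, and CD40 receives CD40L from T cells and signals through TRAF adaptors. CD69 and CD44 are common flow cytometry markers of activated lymphocytes, CD83 marks activated B cells and dendritic cells, FAS is a death receptor, and SLAMF1 is a receptor that binds its own kind on neighbouring cells.

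The arrays of replicate 1 stood apart from the others in both groups. Xist, the RNA of X chromosome inactivation in females, read an intensity of 52.6 in both replicate 1 samples and at least 791 in the other 4 samples. Eif2s3y, a gene of the Y chromosome, read 1043 and 516 in the replicate 1 samples and at most 56.4 elsewhere. Replicate 1 was thus male by these genes and replicates 2 and 3 female, in both groups alike, so replicate 1 came from other animals than replicates 2 and 3. Some markers of other cells differed too. Among untreated samples Lyz2 read 9.72 on the log2 scale in replicate 1 against 11.78 and 12.27 in replicates 2 and 3. Prf1 read 10.50 against 12.30 and 12.38, while Xbp1 was higher in replicate 1 (13.32 against 11.83 and 11.98). Results are therefore also given without both replicate 1 arrays, in a fit whose degrees of freedom are mostly borrowed across genes. The B cell markers Cd79b, Cd22 and Blk were well above the array median in all samples, and 5 of 6 B cell markers tested were lower with anti-IgM, beside 23.9% of all genes tested, with a median log2 change of −1.29, or −1.11 with Pax5 at its bound. Cd22 changed by −2.95 ± 0.20 and Cd79b by −2.76 ± 0.10. In bulk samples fewer cells of a type and less RNA per cell cannot be told apart.

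Anti-IgM samples had more Cd44, Cd86 and Cd69 transcript and less Cd40, Fas, Cd80 and Icosl transcript than untreated samples. Cd44 was 4.11-fold higher and Cd86 2.87-fold higher, while Cd40 was 2.84-fold lower and Fas 2.29-fold lower. Cd83 and Slamf1 did not pass the test. In all, 3 of the 9 genes rose and 4 fell at an adjusted p under 0.05 (limma, Benjamini-Hochberg over all genes tested). Among all genes tested 47.1% were called, 23.2% as risen and 23.9% as fallen by the same rule. Called changes of at least 2-fold were seen in 4 of the 9 genes, beside 19.9% of all genes. In 7 of the 9 genes no untreated sample lay within the anti-IgM range or the reverse, beside 54.8% of all genes tested. The median absolute log2 change was 0.98 for the 9 genes and 0.36 for all genes, and the signed medians were −0.38 and 0.02. The 9 genes thus did not move as a block, and with so few genes, picked with earlier results known, these shares are a description.

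**Figure D1:**
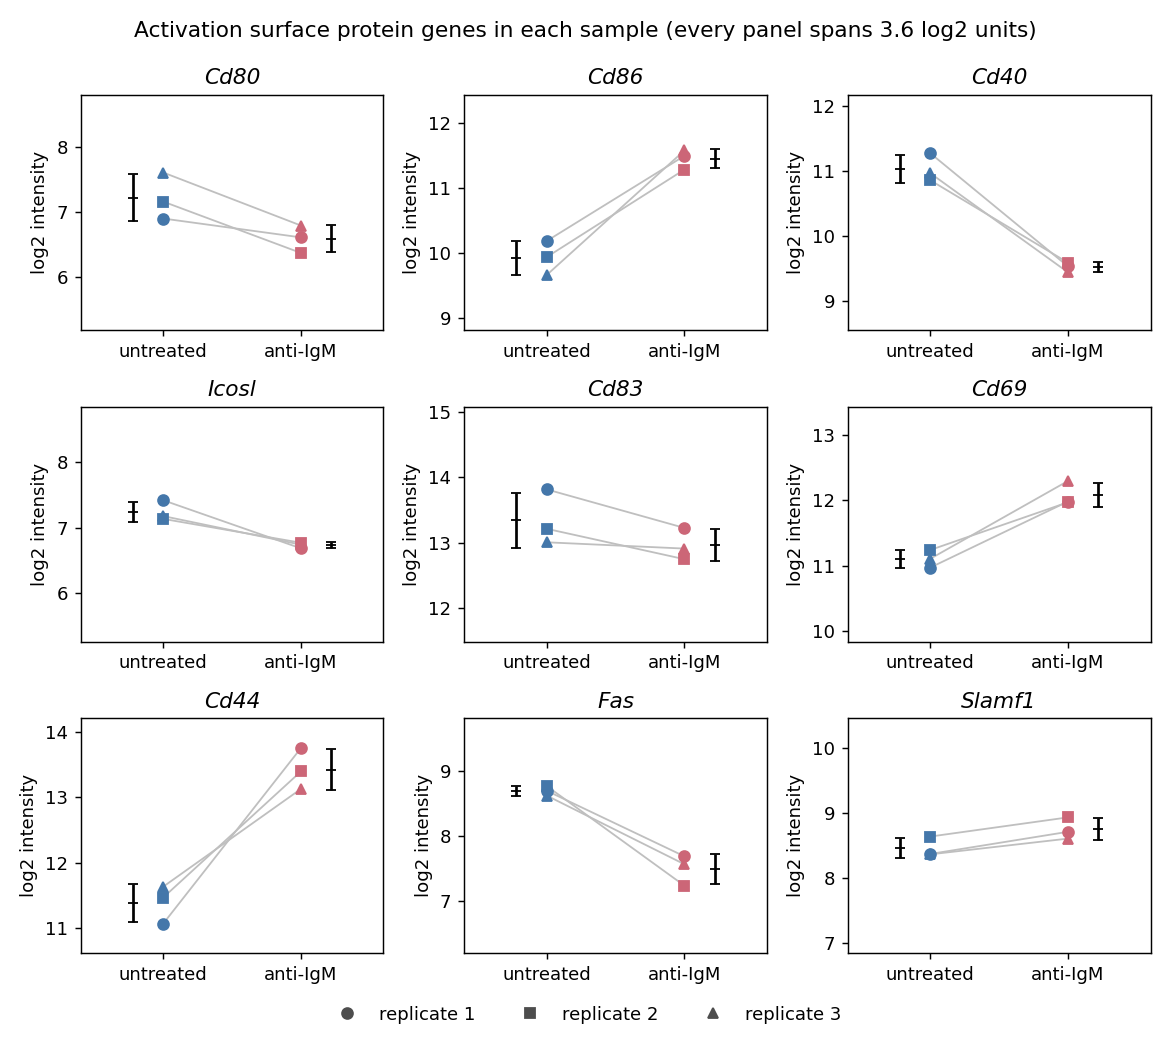
Log2 intensity (vertical axis) of each gene's brightest probe in the untreated (blue) and anti-IgM (red) samples, with marker shape giving the replicate number, grey lines joining equal numbers and black bars giving mean ± SD (n = 3). Cd44, Cd86 and Cd69 were higher in each anti-IgM sample than in any untreated sample, Cd40, Fas, Cd80 and Icosl were lower, and the groups of Cd83 and Slamf1 overlapped.

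RefSeq (build GRCm38.p6) listed promoter sequence for 5 of the 9 genes: Cd80, Icosl, Cd44, Fas and Slamf1. Windows from 250 to 21 bases before the annotated start are printed for Cd44, whose brightest probe rose most of the 9 genes, and for a pair that fell, Fas and Icosl. They lie at chr2:102901686-102901915 (minus strand), chr19:34290409-34290638 (plus strand) and chr10:78069118-78069347 (plus strand). Capitals mark matches to motifs bound by factors that antigen receptor signals act on, and to a general GC box.
Cd44: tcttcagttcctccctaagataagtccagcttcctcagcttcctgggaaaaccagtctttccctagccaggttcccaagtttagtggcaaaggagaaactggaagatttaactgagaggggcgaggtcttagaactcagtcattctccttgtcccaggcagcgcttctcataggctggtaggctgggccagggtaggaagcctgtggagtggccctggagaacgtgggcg
Fas: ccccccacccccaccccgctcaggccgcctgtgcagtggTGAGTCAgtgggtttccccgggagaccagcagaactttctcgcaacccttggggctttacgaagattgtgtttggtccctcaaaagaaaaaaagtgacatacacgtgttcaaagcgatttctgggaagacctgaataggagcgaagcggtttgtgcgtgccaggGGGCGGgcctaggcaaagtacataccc
Icosl: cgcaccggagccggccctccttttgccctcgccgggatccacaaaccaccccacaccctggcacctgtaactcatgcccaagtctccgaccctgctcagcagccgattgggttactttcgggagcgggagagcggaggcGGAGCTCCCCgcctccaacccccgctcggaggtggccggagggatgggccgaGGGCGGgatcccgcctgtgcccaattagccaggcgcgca

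The motifs were searched on both strands: AP-1 (TGANTCA), CRE (TGACGTCA), EGR (GCGNGGGCG), the GC box (GGGCGG) and the kappa B consensus of NF-kB. The Fas window held an AP-1 match from 211 to 205 bases before the start and a GC box from 47 to 42. The Icosl window held a kappa B match from 111 to 102 and a GC box from 59 to 54, and the Cd80 window an AP-1 match from 42 to 36. No 2 of these matches overlapped, and the Cd44 and Slamf1 windows held none of these letters. Of 32851 promoter windows of the same length, 6.34% held the AP-1 motif, 1.28% the CRE, 4.01% the EGR motif, 29.8% the GC box and 6.68% the kappa B consensus. The matches describe the letters and do not show binding.

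Of the ligands of CD28 and ICOS, Cd86 rose while Cd80 and Icosl fell. Cd86 had log2 intensities of 10.18, 9.94 and 9.66 in untreated samples 1 to 3 and of 11.49, 11.28 and 11.57 in anti-IgM samples 1 to 3. Every anti-IgM sample lay above every untreated sample. The log2 change was 1.52 ± 0.14 (SE; adjusted p = 7.38e-06, limma), and 1.63 without both replicate 1 arrays. A larger rise was seen in 3.95% of all genes tested. The mean of its 3 probes rose by 1.82, more than that of the tested Cd44 probes (1.30), so the order of Cd86 and Cd44 turned with the choice of probes.

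Cd80, whose protein binds the same T cell receptors as CD86, was dim. It had log2 intensities of 6.90, 7.16 and 7.60 in untreated samples and of 6.61, 6.37 and 6.79 in anti-IgM samples, where the array median is 6.19. The groups did not overlap, but the lowest untreated and the highest anti-IgM sample lay close together. Cd80 changed by −0.63 ± 0.20 (adjusted p = 0.024, limma), a 1.55-fold fall, with −0.80 without both replicate 1 arrays. The call was lost without untreated replicate 2 (adjusted p = 0.052) or 3 (0.088) and without anti-IgM replicate 2 (0.10). Its other tested probe changed by −0.04. That probe averaged 6.19, at the array median, and was above it on 3 of 6 arrays, so background limits the size of its change. The mean of both probes changed by −0.34 (adjusted p = 0.033, limma).

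Icosl, which encodes the ligand of ICOS, was about as close to the array median. It read 7.42, 7.13 and 7.18 on the log2 scale in untreated samples and 6.68, 6.77 and 6.74 in anti-IgM samples. The untreated samples were all higher, and the anti-IgM samples differed by less from each other (SD 0.04, n = 3) than the untreated ones (SD 0.15, n = 3). Icosl fell by 0.51 ± 0.15 on the log2 scale (adjusted p = 0.014, limma). Without both replicate 1 arrays the change was −0.40 and missed the threshold (adjusted p = 0.072), as did the mean over its 2 probes (−0.28; adjusted p = 0.081). Background was not taken off these intensities to 0, so folds of dim genes are compressed. After normexp background correction Cd80 changed by −0.80 and Icosl by −0.64.

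Cd40, the receptor through which T cell help reaches the B cell, showed the largest fall of the 9 genes when each was read by its brightest probe. Its log2 intensity was 11.27, 10.85 and 10.96 in untreated samples and 9.53, 9.59 and 9.44 in anti-IgM samples, so the groups lay more than 1 log2 unit apart. The change was −1.51 ± 0.12 (adjusted p = 3.09e-06, limma), and −1.39 without both replicate 1 arrays. A larger fall was seen in 5.10% of all genes tested. All 4 tested probes of Cd40 fell, by 1.51, 0.71, 0.71 and 0.49 on the log2 scale from the brightest to the dimmest. Their mean changed by −0.85 (adjusted p = 0.00011), slightly less than the mean of the tested Fas probes.

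The brightest Cd40 probe and the next one are annotated to the same transcript, yet they moved by different amounts. In a comparison added after the values were seen, the brightest exceeded the next within arrays by 0.77 to 0.99 log2 units in untreated samples and by −0.02 to 0.11 in anti-IgM samples. The ranges did not overlap (exact permutation test, two-sided, p = 0.1, the smallest that 3 against 3 samples can give). The direction of Cd40 was thus shared by its tested probes and the size was not. In all, 17 tested probes were set against the brightest probe of their gene in this way. The ranges did not overlap for 9 of them, and the median absolute difference between groups was 0.80. Among the 9 were all other tested probes of Cd40, the dimmest at a mean of 6.66 log2 units. The rest were probes of Cd44, Cd69 and Fas with means of 6.33 to 6.57, near the array median of 6.19. Changes of such dim probes are compressed. Of these, ILMN_1228214 and ILMN_1246460 of Cd44 passed the filter through the anti-IgM samples alone. For the next brightest probes of Cd80, Cd86, Icosl, Cd44, Fas and Slamf1 the ranges overlapped. The cause of the unequal sizes was not tested.

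Cd83, a protein that keeps CD86 and MHC class II on the cell surface, was bright in both groups and had 1 probe. It read 13.82, 13.21 and 13.00 on the log2 scale in untreated samples and 13.22, 12.75 and 12.91 in anti-IgM samples. Replicate 1 was the highest of its group in both, and the groups overlapped. The change was −0.38 ± 0.19 (adjusted p = 0.13, limma), with a 95% interval from −0.81 to 0.04. With the replicate number as a block, which takes out what equal numbers share, the adjusted p was 0.0020 for the same change. It was lower with anti-IgM in all 3 pairs, by 0.59, 0.47 and 0.10. Without both replicate 1 arrays the change was −0.28 (adjusted p = 0.029), and without untreated replicate 1 alone it was −0.15 (adjusted p = 0.42). The fall of Cd83 was thus called only in fits that pair the arrays or leave out anti-IgM replicate 1, alone (adjusted p = 0.046) or with its partner.

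Of the activation markers Cd44 and Cd69, Cd44 rose more. CD44 binds hyaluronan in the matrix and links to the cytoskeleton through ERM proteins. Its log2 intensity was 11.06, 11.47 and 11.63 in untreated samples and 13.76, 13.40 and 13.13 in anti-IgM samples. The groups lay 1.50 log2 units apart at their nearest samples, untreated replicate 3 and anti-IgM replicate 3. The change was 2.04 ± 0.17 (adjusted p = 4.14e-06, limma), and 1.54% of all genes tested rose more. Replicate 1 held both the lowest untreated and the highest anti-IgM value, so the pairs differed by 2.69, 1.93 and 1.50, and without both replicate 1 arrays the change was 1.72.

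Cd44 had 9 probes, 7 of them tested. The next brightest was above the array median in all samples and changed by 2.37 ± 0.22. The other 5 tested probes were near the array median in untreated samples. Of these, ILMN_1228214 and ILMN_1246460 were above it in anti-IgM samples alone, so the filter itself favoured a rise in them, and their changes are bounds of at least 1.60-fold and 1.37-fold. ILMN_2640330 (1.52) and ILMN_2697830 (1.33) were above it in 1 of 3 untreated samples, and ILMN_2730266 (0.33), in 2 of 3, did not pass the test. The mean over the tested probes, 1.30 (adjusted p = 1.52e-05), takes in these dim probes.

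Cd69, a lectin-like receptor that holds activated lymphocytes in tissue by removing the receptor S1PR1 from the surface, rose less. It read 10.97, 11.24 and 11.10 on the log2 scale in untreated samples and 11.98, 11.97 and 12.30 in anti-IgM samples. The anti-IgM samples were all higher. The change was 0.98 ± 0.12 (adjusted p = 4.73e-05, limma), a 1.97-fold rise, with 0.96 without both replicate 1 arrays. Its other tested probe was near the array median and changed by 0.17, and the mean of both was 0.57 (adjusted p = 0.0011).

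Fas, which encodes the death receptor that FAS ligand engages, fell. Its log2 intensity was 8.69, 8.77 and 8.62 in untreated samples and 7.69, 7.24 and 7.57 in anti-IgM samples. The groups were clearly apart, and the untreated samples were close together (SD 0.07, n = 3). Fas changed by −1.20 ± 0.16 (adjusted p = 9.79e-05, limma), and by −1.29 without both replicate 1 arrays. The mean of its tested probes changed by −0.88 (adjusted p = 0.00033). Its second brightest probe changed by the same −1.20, while the dim probe ILMN_2582933 changed by −0.24 and did not pass.

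Slamf1 changed least. It read 8.37, 8.64 and 8.37 on the log2 scale in untreated samples and 8.71, 8.93 and 8.61 in anti-IgM samples. Replicate 2 was the highest of its group in both, and untreated replicate 2 lay above anti-IgM replicate 3. The change was 0.29 ± 0.15 (adjusted p = 0.13, limma), with a 95% interval from −0.03 to 0.62. All 3 pairs were higher with anti-IgM, by 0.34, 0.29 and 0.24. With the replicate number as a block the adjusted p was 0.045, and with the mean of its tested probes the change was 0.32 (adjusted p = 0.044). Without both replicate 1 arrays it was 0.27 (adjusted p = 0.16).

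**Figure D2:**
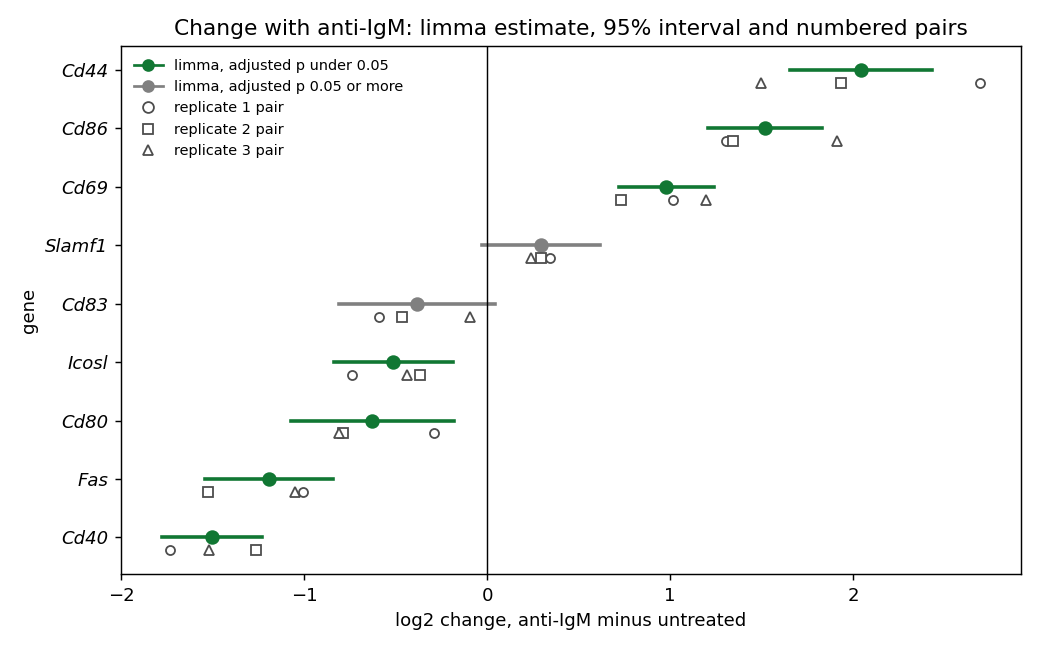
Log2 change, anti-IgM minus untreated (horizontal axis), of each gene, with the limma estimate as a filled point, its 95% interval as a line, and the differences within replicate pairs 1 to 3 as open marks. Cd44 is farthest to the right at 2.04 and Cd40 farthest to the left at −1.51, and the intervals of Cd83 and Slamf1 include 0.

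Of the 31 probes 26 were tested, and 10 rose and 8 fell at an adjusted p under 0.05 over all probes tested, where 42.2% were called. Of the 10 that rose, 2 are the Cd44 probes that passed the filter through the anti-IgM samples alone. No gene had called probes in both directions. For Cd86, all 3 probes rose, by 1.52, 1.38 and 2.56, the last from ILMN_2743244.

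**Figure D3:**
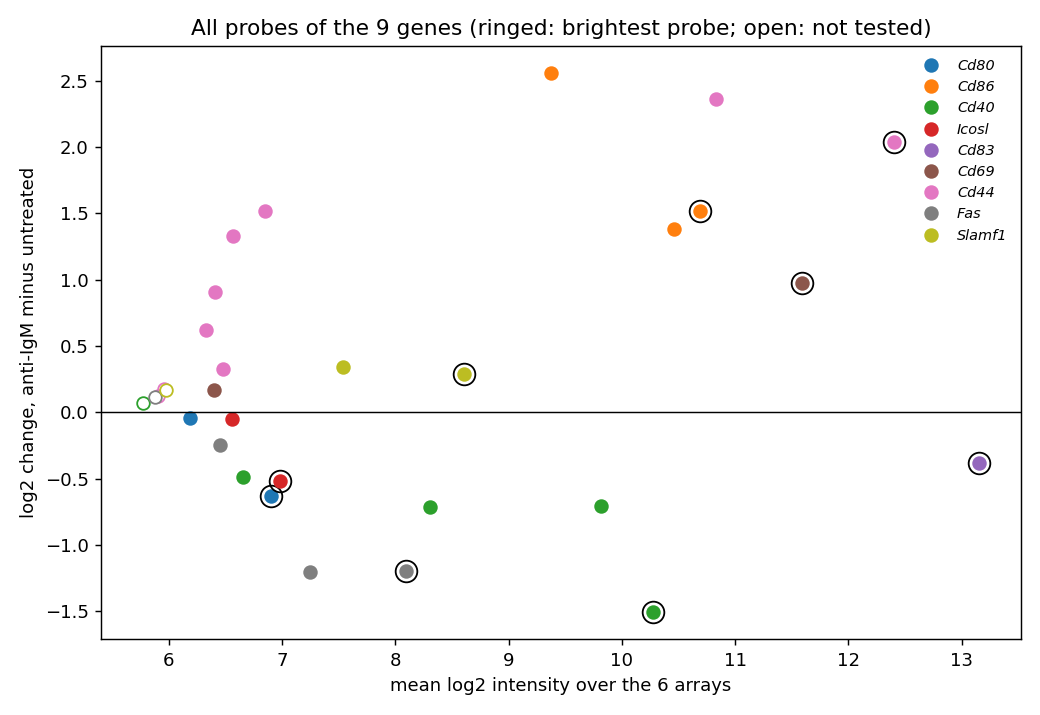
Log2 change (vertical axis) against mean log2 intensity over the 6 arrays (horizontal axis) for all 31 probes of the 9 genes, with the brightest probe of each gene ringed and probes not tested drawn open. Probes of Cd86 and Cd44 lie above 0 and tested probes of Cd40 below it, and the open points lie close to 0.

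Genes that act with these proteins were read from 7 lists, written with earlier results of these data known. In the lists with more than 1 gene tested, 50% to 77.8% of the tested genes were called, beside 47.1% of all genes tested (23.2% higher and 23.9% lower). With 6 to 10 genes a list, these counts are a description and show nothing particular to a list. Of 10 tested genes among the B7 relatives, the T cell receptors of that family and other checkpoint partners, 2 rose and 4 fell (median −0.01). Vsir, which encodes the checkpoint protein VISTA, stayed at or below the array median in the untreated samples and was at least 3.88-fold higher with anti-IgM. Pdcd1lg2, which encodes the PD-1 ligand PD-L2, rose by 0.90 ± 0.14. Btla, an inhibitory receptor, changed by −1.69 ± 0.13, and Cd28, the T cell receptor for CD80 and CD86, by −1.35 ± 0.16. Cd274, for the other PD-1 ligand, PD-L1, fell (−1.06 ± 0.14), and so did Cd276 (−0.57 ± 0.15).

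Downstream of CD40, 3 of 9 tested genes rose and 4 fell (median −0.16). Traf1, an adaptor that NF-kB induces, rose by 1.28 ± 0.12, and Tnfaip3, which encodes the NF-kB inhibitor A20, by 1.07 ± 0.12. Birc2, a ubiquitin ligase that binds TRAF2, changed by −1.12 ± 0.15 and the adaptor Traf5 by −0.96 ± 0.14. In the FAS death receptor pathway 2 of 7 rose and 3 fell (median 0.23). Fasl, the ligand, rose by 1.00 ± 0.15 and Bid, which carries the death signal to mitochondria, by 0.63 ± 0.12. Casp8, the initiating protease, changed by −1.46 ± 0.13, and Fadd, the adaptor that joins it to FAS, by −0.93 ± 0.12. Fas, Fadd and Casp8 thus had lower transcript levels and Fasl a higher one, though Fasl was dim in untreated samples (6.74, 6.62 and 6.48). Tradd also fell (−0.63 ± 0.19), and Cflar and Faim did not pass the test.

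Among SLAM relatives and their SAP adaptors, 1 of 8 rose and 4 fell (median −0.43). Sh2d1b1, which encodes the adaptor EAT-2, was likewise at or below the median in untreated samples and was at least 2.23-fold higher with anti-IgM. Slamf9 changed by −0.92 ± 0.21, and Cd48, the ligand of the receptor CD244, was at least 1.54-fold lower. For this list 3 genes were called when untreated replicate 2, untreated replicate 3 or anti-IgM replicate 2 was left out, and 3 with the filter on all 6 arrays. With the replicate block 7 were called, Slamf6 (−0.80) and Slamf7 (−0.30) being added. Ly9 and Cd84 were the others that fell.

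Among partners of CD69, lectins related to it and genes of sphingosine-1-phosphate signalling, 2 of 7 rose and 3 fell (median −0.34). Sphk1, the kinase that makes this lipid, was at least 3.81-fold higher, and Slc3a2, the heavy chain of an amino acid transporter, rose by 1.18 ± 0.17. S1pr4, a receptor of the lipid, changed by −2.84 ± 0.18, and the lectin gene Clec2d by −1.36 ± 0.21. In anti-IgM samples S1pr4 was near the array median, at 6.39, 6.88 and 6.29. S1pr1, the receptor that CD69 removes, did not pass the filter, with log2 intensities between 5.52 and 5.99. Of genes that set the surface life of CD83, CD86 and MHC class II, 2 of 6 rose and 1 fell (median 0.21). Marchf1, a ubiquitin ligase that takes CD86 and MHC class II off the surface, changed by −4.50 ± 0.18. Its anti-IgM samples read 6.12, 6.37 and 6.81, near the array median, so background limits the size of this fall. Il10, a cytokine that induces this ligase in human monocytes, rose by 2.74 ± 0.20, and Tsg101, an endosomal sorting protein, by 0.61 ± 0.15. Of the CD44 ligands and cytoskeletal linkers 1 of 8 on the array was tested, Msn, which encodes the linker moesin (−0.25 ± 0.12; adjusted p = 0.14, limma). With the replicate number as a block its adjusted p was 0.023 for the same change.

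**Figure D4:**
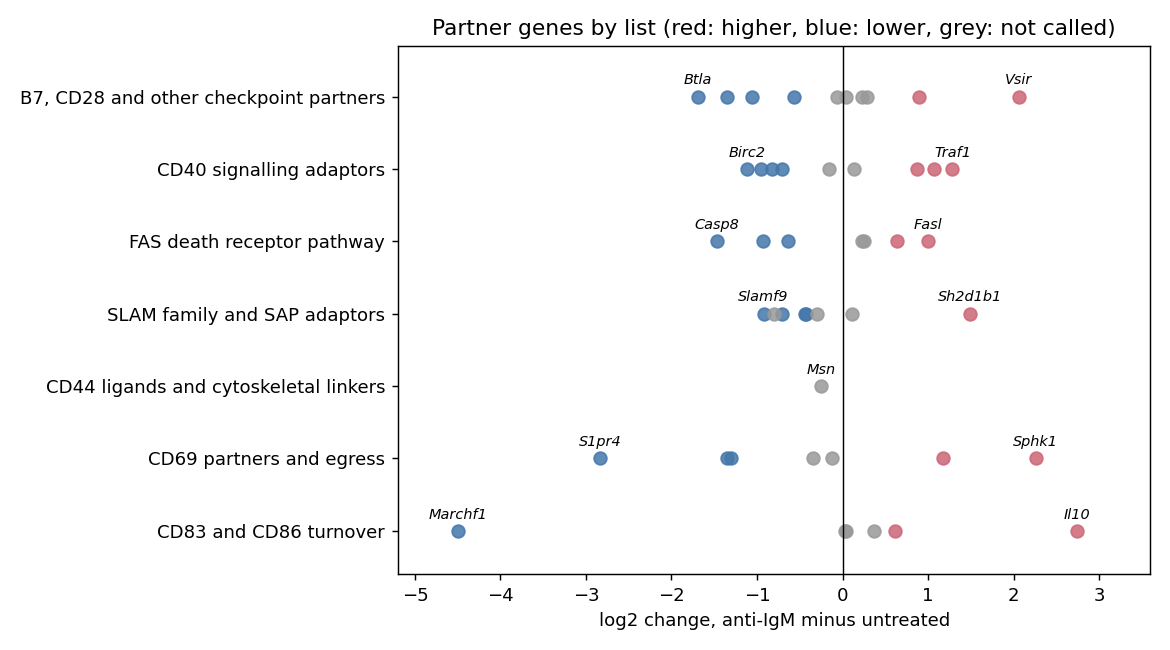
Log2 change, anti-IgM minus untreated (horizontal axis), of each tested gene of the 7 partner lists, in red where higher and in blue where lower at an adjusted p under 0.05 and in grey otherwise, with the genes at either end of a list named. The 6 lists with more than 1 tested gene hold genes on both sides of 0, from Marchf1 at −4.50 to Il10 at 2.74.

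Other cells that carry these surface proteins were followed through their markers. Over all genes tested 23.2% rose and 23.9% fell by the same rule. With so few genes a list, the counts below are a description. Of the T cell list, 1 of 6 tested genes fell, Cd2, which mouse B cells also express, and none rose; Cd3d, Cd3e, Cd3g and Cd4 averaged between 6.04 and 6.99 on the log2 scale in either group, and Cd8a and Cd5 stayed under the median of every array. The summed T cell list ran from 11.40 to 11.97 in untreated and from 9.85 to 9.94 in anti-IgM samples, a sum carried by Cd2, whose mean fell from 11.52 to 8.66. Of macrophage and monocyte markers 2 of 6 fell, Adgre1 (−2.10 ± 0.22) and Mpeg1 (−1.35 ± 0.26), with sums of 10.95 to 12.75 and 10.60 to 11.48. Of dendritic cell markers 1 of 5 rose, Zbtb46 (1.76 ± 0.14), and 1 fell, Cst3 (−1.22 ± 0.20), with sums of 12.25 to 12.92 and 11.62 to 12.17, and Itgax, Flt3 and Clec9a were too dim to be tested. Of natural killer cell markers 1 of 4 rose, Nkg7 (1.20 ± 0.21), and 1 fell, Klrd1 (−0.78 ± 0.15), with sums of 10.89 to 12.48 and 11.17 to 12.14, and Ncr1 stayed under the median of every array. Of neutrophil markers 2 of 5 fell, S100a8 (−0.97 ± 0.32) and S100a9 (−0.85 ± 0.22), with sums of 9.84 to 10.81 and 9.64 to 9.94. Of plasma cell markers 1 of 3 fell, Sdc1 (−1.24 ± 0.32), with sums of 12.03 to 13.37 and 12.89 to 13.07. Of 2 erythroid markers none passed (limma), with sums of 10.09 to 11.09 and 9.66 to 11.06. With the replicate block 4 of 6 macrophage and monocyte markers were called, Adgre1, Lyz2 and Mpeg1 as lower and Cd14 as higher. So were 4 of 4 natural killer cell markers, Nkg7 and Klrb1c as higher and Klrd1 and Prf1 as lower. Of plasma cell markers 2 of 3 were called, Sdc1 as lower and Xbp1 as higher, and of erythroid markers 1 of 2, Hba-a1, as lower. The block also called the neutrophil marker Ltf (adjusted p = 0.026, limma) and the B cell marker Cr2 (adjusted p = 0.037, limma), both lower. Over all genes tested it called 6397 of 11855. The part of these cells in the changes of the 9 genes was not tested.

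Other genes with the most similar profile were found by the smallest root mean square difference over the 6 arrays, after each gene was centred on its own mean. For Cd86 these were Idi1 and Tars, at 0.10 log2 units each. For Cd69 they were Mogs (0.06) and Mfsd5 (0.07), and for Cd44 Arhgap23 (0.11) and Vsir (0.17). Cd40 was matched by Uap1l1 (0.04) and Scand1 (0.06), Fas by Map7 (0.07) and Rchy1 (0.08), and Cd80 by Ctc1 (0.08) and Il15 (0.10). The nearest to Icosl were Bsdc1 (0.03) and H2ac20 (0.04). Those nearest to Cd83 were Arfgef2 (0.06) and Herc1 (0.06), and to Slamf1 Pard3 (0.04) and Nr2e1 (0.05).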

How the data were processed

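The authors deposited 1-colour Illumina intensities on a linear scale, already normalized between arrays, as found from the values: medians of the 6 arrays differed by 0.0453%. How they did so is not given in these sources, nor is the array's genome build. The 6 columns of an unnormalized table carry names tied to no label and were left out.

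Samples were grouped by their titles. Values were log2-transformed and not normalized again. A probe was tested when above its array's median on at least 3 of 6 arrays (23505 of 45281 probes), and each gene was read by its brightest tested probe. Groups were compared with limma 3.58.1 in R 4.3.3 (lmFit and eBayes with an intensity trend, two-sided, with group as the term) and adjusted by Benjamini-Hochberg over 11855 genes, with a threshold of 0.05. The script was tested on simulated data. A gene not above the array median in any sample of 1 group has a change that is a bound, set between the brighter group's mean and the dimmer group's mean after values under the array median are raised to it. Precision is limited by having 3 arrays a group (median SE 0.15).

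Equal replicate numbers were checked as pairs on deviations from group means, which correlated at 0.60, 0.27 and 0.32. All exceed 0.1, so the labels' numbers were taken as pairs. Untreated replicate 2 with anti-IgM replicate 3 gave 0.39, and untreated replicate 3 with anti-IgM replicate 2 gave 0.11. These exceed 0.1 too, so the check cannot tell which arrays of replicates 2 and 3 belong together. Results by pair or block rest there on the labels' numbers. The 9 genes, the lists and the tests were chosen with earlier results of these data known. Named are the 9 genes, the 2 largest called rises and falls of each partner list, and the 2 genes nearest to each of the 9, with others where a small count or a result turns on them. Probe names came from the platform annotation, matched by Entrez ID to RefSeq (GRCm38.p6), which also gave the promoter sequences. Exact tests used SciPy 1.17.1 and plots matplotlib 3.10.9 in Python 3.11.15.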

Additional observations from a re-analysis of the deposited data

How the results depend on the processing

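Under 15 alternatives, no change of the 9 genes reversed, and 125 of 135 values kept their side of the threshold. Cd86, Cd40, Cd69, Cd44 and Fas were called under all 15. With the replicate block Cd83 (−0.38) and Slamf1 (0.29) passed the threshold. The block changed no other call among the 9 genes. In the partner lists it added Cflar, Slamf6, Slamf7, Msn, S1pr2 and Rab11a and lost none. It gave 6397 genes called in place of 5581. Its fit had 21.7 degrees of freedom at the median gene, most of them borrowed across genes. The same holds for the 23.6 in the fit without both replicate 1 arrays, so its adjusted p-values are to be read with that limit. Without both replicate 1 arrays Cd83 passed (−0.28) and Icosl did not (−0.40). With the mean of a gene's probes Slamf1 passed (0.32) and Icosl did not (−0.28). Leaving out 1 array at a time gave −0.79 to −0.44 for Cd80, which lost its call in 3 of these fits, and −0.55 to −0.15 for Cd83, which gained it in 1. The other alternatives (quantile normalization, normexp with an offset of 16, no filter, a filter on all 6 arrays, no intensity trend and array weights) changed no call among the 9 genes. Where a call changed, the cause was not tested. Signal near background limits Cd80, Icosl, the dim probes and partner genes dim in 1 group, among them Marchf1, S1pr4 and Fasl.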
